A study of Mus musculus with 24 samples.

Results

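The 10 genes described here encode the NF-kB transcription factor subunits and the proteins that restrain them. They were taken as the rows of the deposited table of 35612 mouse genes whose Ensembl identifier maps to the 10 symbols, and all 10 were found. Nfkb1, Nfkb2, Rel, Rela and Relb encode the 5 subunits. Nfkbia and Nfkbib encode the classical inhibitors IkBα and IkBβ, Nfkbid and Nfkbiz the atypical nuclear proteins IkBNS and IkBζ, and Tnfaip3 the ubiquitin-editing enzyme A20.

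Bulk RNA sequencing was done on CD4+ T cells of male mice, 5 months old, on the C57BL/6 background and of the strain Foxp3Thy1.1, in which Thy1.1 marks cells that express Foxp3. Regulatory T cells (Treg, Foxp3+) and conventional T cells (Tconv, Foxp3−) were sorted from spleen, liver, blood mononuclear cells (PBMC) and the lymph node that drains the liver (LDLN), which gave 8 groups. The sort took live CD45+ TCRβ+ cells that were CD4+ and CD8α− and lacked NK-1.1 and CD1d tetramer binding, after positive selection for CD4. Each group had 3 libraries, and each library held cells pooled from 3 mice, so the spread between libraries is a spread between pools; no treatment or genetic change other than the reporter allele was named, and all groups carried that allele.

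NF-kB dimers are held in the cytoplasm of resting T cells by IkB proteins. Signals from the T cell receptor, CD28 and TNF family receptors activate the IkB kinase, IkBα is degraded, and dimers of RelA or c-Rel with p50 enter the nucleus; a slower noncanonical route processes p100, the Nfkb2 product, and releases RelB. Nfkbia and Tnfaip3 are textbook feedback targets: NF-kB raises their transcription, and their products end the response. In Treg, c-Rel and IkBNS are known to support the induction of Foxp3.

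In GRCm38 with GENCODE M21 the subunit genes lie at chr3:135584655-135691547 (Nfkb1, minus strand), chr19:46304320-46312385 (Nfkb2, plus), chr11:23736847-23770970 (Rel, minus), chr19:5637483-5648130 (Rela, plus) and chr7:19606217-19629438 (Relb, minus). The inhibitor genes lie at chr12:55489410-55492647 (Nfkbia, minus), chr7:28758251-28767512 (Nfkbib, minus), chr7:30421732-30428746 (Nfkbid, plus), chr16:55811375-55838899 (Nfkbiz, minus) and chr10:19000910-19015657 (Tnfaip3, minus). All 10 are protein-coding.

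The stretches printed here show where the κB consensus, the DNA word that NF-kB dimers recognize, lies near the starts of 5 of these genes. RefSeq windows of build GRCm38.p6, covering the 250 bases before an annotated start, matched 7 of the 10 genes with 12 windows; Nfkb1, Relb and Nfkbiz had no entry. The 10-letter κB consensus was GGGRNNYYCC, where R is A or G, Y is C or T and N is any base. Searched on both strands, it was found in 7 of the 12 windows, against 7.25% of all 32851 windows of the same length. These windows belong to 5 of the 7 genes, Nfkb2, Rel, Nfkbia, Nfkbid and Tnfaip3. The AP-1 heptamer TGANTCA, which reads the same on both strands, was found in 2 of the 12 windows, 1 each of Nfkb2 and Tnfaip3, against 6.75% of all windows, and overlapped no κB match. No κB match was present in these windows of Rela and Nfkbib. A match is a description of letters and not a measured binding site. By the GENCODE coordinates above, the printed stretches of Nfkb2, Nfkbid and Tnfaip3 lie inside their genes, not upstream of them. The windows that hold the printed Nfkb2 and Tnfaip3 stretches had 250 and 110 bases in annotated exons on either strand. The windows of Nfkbia and Rel are given whole, on the strand of the gene, with the κB match in capitals. The other genes are given by 1 stretch of 30 bases each around a match. Nfkb2, Nfkbid and Tnfaip3 had further κB matches in their windows that are not printed.
Nfkbia, chr12:55492648-55492897, minus strand: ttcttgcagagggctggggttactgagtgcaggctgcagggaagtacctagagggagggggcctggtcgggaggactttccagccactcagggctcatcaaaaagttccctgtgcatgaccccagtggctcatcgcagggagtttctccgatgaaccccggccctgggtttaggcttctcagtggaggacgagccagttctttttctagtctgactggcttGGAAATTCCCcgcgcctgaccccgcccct
Rel, chr11:23770970-23771219, minus strand: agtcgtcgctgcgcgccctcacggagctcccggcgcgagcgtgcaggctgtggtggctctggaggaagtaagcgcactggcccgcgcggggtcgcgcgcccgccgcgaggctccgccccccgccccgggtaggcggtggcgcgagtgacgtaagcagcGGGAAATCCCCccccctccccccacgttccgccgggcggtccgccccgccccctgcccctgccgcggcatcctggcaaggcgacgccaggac
Nfkb2, chr19:46304688-46304717, plus strand: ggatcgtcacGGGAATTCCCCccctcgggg
Nfkbid, chr7:30422215-30422244, plus strand: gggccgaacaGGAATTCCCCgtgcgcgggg
Tnfaip3, chr10:19015411-19015440, minus strand: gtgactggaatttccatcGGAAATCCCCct
The capitals begin 29 bases before the RefSeq start in Nfkbia, 92 in Rel, 39 in Nfkb2, 181 in Nfkbid and 12 in Tnfaip3. In Rel and Nfkb2 the capitals span 11 bases because overlapping matches are joined.

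Values are normalized counts, that is, reads per gene divided by 1 size factor per library. Library depth ran from 17523927 to 25398037 reads, and the member with the fewest reads in any library was Relb with 191 reads. As a check of the sort, Foxp3 lay between 1401.9 and 2226.7 normalized counts in the 12 Treg libraries. In the Tconv libraries it lay between 13.6 and 30.5 in 7 libraries and between 305.3 and 627.4 in the other 5: Liver replicates 1 and 3, LDLN replicate 3, PBMC replicate 1 and Spleen replicate 3. The summed counts of 6 T cell markers ran from 80424 to 117425 over the 24 libraries. Liver Tconv replicate 2 stood apart, with summed markers of 21669 for B cells, 10207 for macrophages, 5902 for NK cells and 118107 for erythroid cells, against at most 3061, 257.7, 1768 and 27083 in the other liver Tconv libraries. Spleen Treg replicate 1 also stood apart, with sums of 17068 for B cell, 1202 for neutrophil, 954.2 for CD8 T cell and 533.9 for NK cell markers, against at most 6219, 161.0, 363.9 and 159.1 in the other spleen Treg libraries. Each result that rests on these libraries is given with and without them where a call depends on it.

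Spleen Treg had the highest group mean for 10 of 10 genes. The lowest mean lay in PBMC Tconv for 7 genes, in LDLN Tconv for Nfkbia and Tnfaip3, and in LDLN Treg for Nfkbib. The ratio of the highest to the lowest group mean was 65.4 for Tnfaip3, 9.09 for Rel, 8.42 for Nfkbid, 6.32 for Nfkbiz and 5.24 for Nfkbia. It was 3.78 for Relb, 3.51 for Nfkb2, 2.44 for Nfkb1, 1.91 for Nfkbib and 1.34 for Rela, so feedback inhibitors and c-Rel spanned wide ranges while Rela stayed nearly level. In bulk libraries a change in how many cells express a gene and a change in RNA per cell cannot be told apart.

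**Figure D1:**
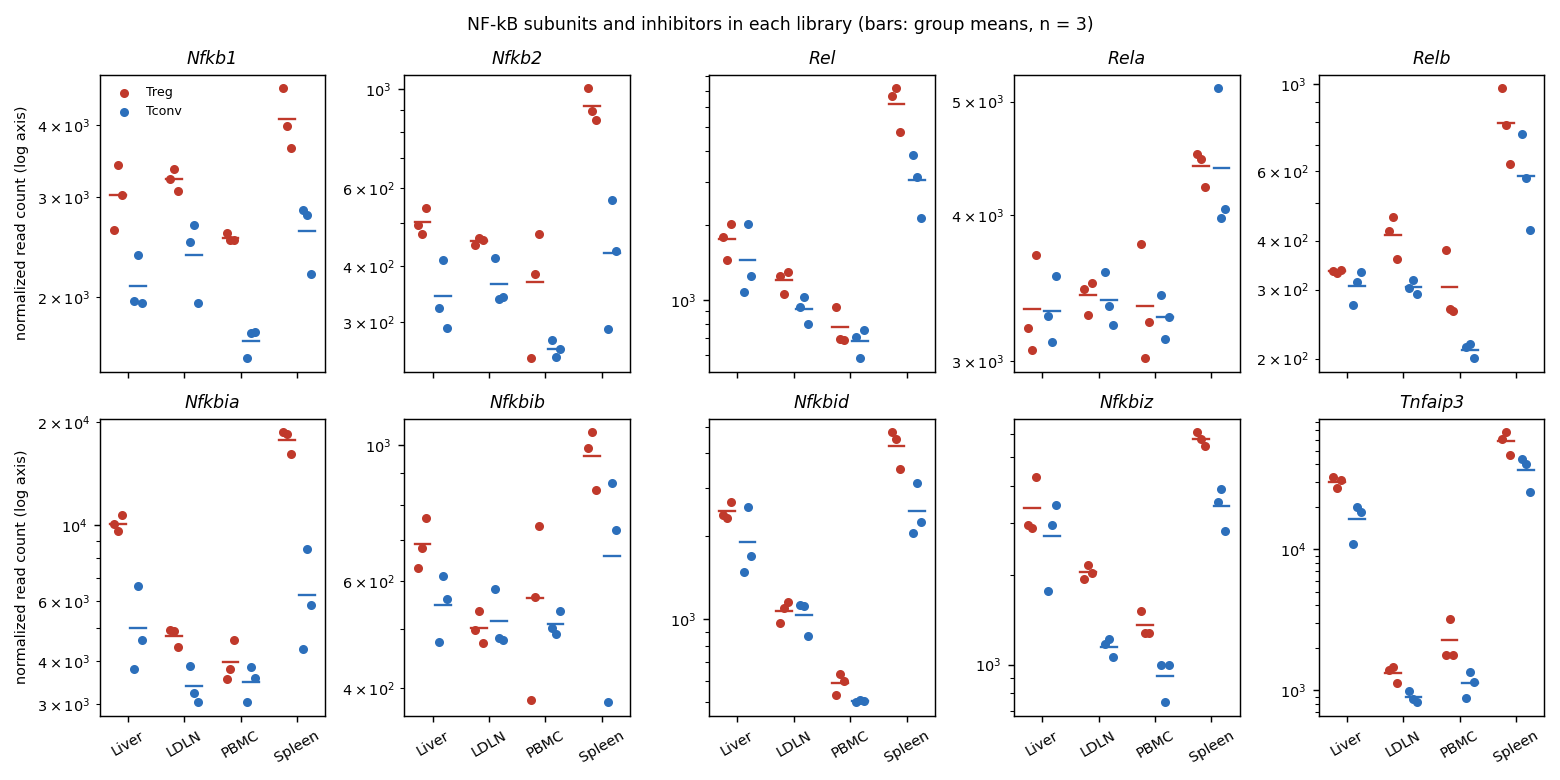
Normalized read count of each of the 10 genes in each of the 24 libraries, on log axes that differ between panels; red points are Treg, blue points are Tconv and bars are group means of 3 libraries. Spleen libraries sit highest in most panels, and the Tnfaip3 panel separates liver and spleen from node and blood with no overlap.

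Among the subunits, Rela, which encodes the main transactivating partner of p50, varied least. Its 24 libraries ran from 3016 to 5136 normalized counts. Treg and Tconv overlapped in every tissue, with log2 differences of 0.00 in liver and 0.02 in each of spleen, PBMC and LDLN, all ± 0.10 (SE).

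Rel, which encodes c-Rel, separated the spleen from the other tissues. In Treg its normalized counts were 6675, 7174 and 4780 in spleen, 1797, 1454 and 2032 in liver, 1251, 1061 and 1300 in LDLN, and 937, 697 and 692 in PBMC. In Tconv they were 3849, 3140 and 2136 in spleen, 1076, 2027 and 1252 in liver, 938, 1028 and 797 in LDLN, and 711, 583 and 756 in PBMC. All spleen libraries of a cell type lay above all libraries of that cell type from the other tissues, and the order of the means was spleen, liver, LDLN, PBMC in both cell types. Liver and LDLN did not overlap in Treg, whereas in Tconv they did not overlap either but were separated only by the gap from 1028 to 1076.

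Nfkb1, which encodes p105 and p50, was the subunit that separated Treg from Tconv in every tissue. Treg libraries held 2627, 3415 and 3017 normalized counts in liver, 3217, 3362 and 3072 in LDLN, 2589, 2519 and 2521 in PBMC, and 4652, 3995 and 3659 in spleen. Tconv libraries held 1969, 2370 and 1953 in liver, 2500, 2677 and 1951 in LDLN, 1565, 1733 and 1740 in PBMC, and 2841, 2785 and 2199 in spleen. Within each tissue every Treg library was above every Tconv library.

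Nfkb2 and Relb, the noncanonical pair, were the least abundant subunits per kilobase of exon. Nfkb2 in spleen Treg, at 1007, 892 and 852, was above all other libraries, whose range was 249 to 564. Spleen Tconv replicate 1, at 289, lay well under the other spleen Tconv libraries at 564 and 434, and PBMC Treg replicate 1, at 249, under its partners at 384 and 472. Relb ran from 201 in PBMC Tconv to 979 in spleen Treg, and spleen Treg and spleen Tconv overlapped. The exons of Nfkb2 share 299 bases with Psd and 531 bases with AC114539.1 on the opposite strand in GENCODE M21, and the strand setting of the counting was not given in the submitters' notes, so its counts may hold reads of those genes.

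Tnfaip3 had the widest range of the 10 genes. In Treg its normalized counts were 60088, 67672 and 46809 in spleen and 32338, 27317 and 30737 in liver, but 1386, 1455 and 1133 in LDLN and 1784, 3228 and 1778 in PBMC. In Tconv they were 43598, 40511 and 25488 in spleen, 10814, 19988 and 18492 in liver, 984, 862 and 823 in LDLN, and 887, 1347 and 1138 in PBMC. The lowest liver or spleen library exceeded the highest LDLN or PBMC library, in both cell types. As a share of all reads the mean was 0.266% in spleen Treg and 0.00671% in LDLN Treg.

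Nfkbia, the inhibitor that is degraded and resynthesized in each NF-kB response, was high in Treg of spleen and liver. Treg libraries held 18666, 18386 and 16136 normalized counts in spleen, 10044, 9579 and 10680 in liver, 4947, 4905 and 4407 in LDLN, and 3547, 3796 and 4631 in PBMC. Tconv libraries held 4333, 8501 and 5858 in spleen, 3801, 6617 and 4614 in liver, 3865, 3237 and 3053 in LDLN, and 3039, 3838 and 3579 in PBMC. Treg of spleen and liver lay above every other library, whereas the Tconv groups of the 4 tissues lay closer together. Spleen Tconv replicate 1 was the lowest of its group here too, but the highest of its group for Nfkb1, Rel, Rela, Relb and Tnfaip3.

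Nfkbid and Nfkbiz, the atypical inhibitors, followed the tissue in both cell types. Nfkbid in Treg was 4770, 4503 and 3517 in spleen, 2395, 2322 and 2668 in liver, 967, 1098 and 1154 in LDLN, and 534, 632 and 597 in PBMC. Nfkbid in Tconv was 2049, 3121 and 2261 in spleen, 1481, 2563 and 1697 in liver, 1123, 1115 and 870 in LDLN, and 501, 510 and 508 in PBMC. Spleen and liver Tconv overlapped, and both lay above LDLN and PBMC. Nfkbiz, whose product is best known as a nuclear cofactor of inflammatory genes, ran in Treg at 6077, 5742 and 5469 in spleen, 2957, 2881 and 4285 in liver, 1936, 2169 and 2040 in LDLN, and 1512, 1279 and 1274 in PBMC. Its Tconv values were 3546, 3901 and 2817 in spleen, 1766, 2962 and 3440 in liver, 1171, 1216 and 1063 in LDLN, and 993, 746 and 996 in PBMC. Nfkbib had group means between 502.9 and 961.2, and it shares 314 exonic bases with Ccer2 and 42 with Sirt2 on the opposite strand.

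The first question of the design is how Treg differed from Tconv within each tissue. A gene was called when limma's moderated test on log2(normalized count + 1), adjusted by Benjamini-Hochberg over all 18576 genes tested, gave a p under 0.05. All 10 genes passed the filter on low values.

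In spleen, 7 of the 10 genes were higher in Treg and none was lower, where 10.1% of all genes tested were called higher and 8.75% lower. Nfkbia differed most, by 1.56 ± 0.19 (log2, SE; adjusted p = 4.07e-06), followed by Nfkb2 at 1.14 ± 0.20 (adjusted p = 0.000352) and Rel at 1.05 ± 0.22 (adjusted p = 0.00179). Nfkbid, Nfkbiz and Nfkb1 rose by 0.79, 0.76 and 0.66. Tnfaip3 differed by 0.69 ± 0.24 with an adjusted p of 0.0495. Without Spleen Tconv replicate 3, which held Foxp3 over 100 normalized counts, Tnfaip3 differed by 0.45 with an adjusted p of 0.253. Its adjusted p was also above 0.05 without Spleen Treg replicate 1 or 2 or Spleen Tconv replicate 2, with a pseudocount of 0.1 (0.0523) and with no filter on low values (0.0838). Relb, Nfkbib and Rela, at 0.46, 0.62 and 0.02, did not pass.

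In liver, 3 of the 10 were higher in Treg and none lower, where 10.2% of all genes were called higher and 10.3% lower. Nfkbia differed by 1.05 ± 0.19 (adjusted p = 0.000348), Tnfaip3 by 0.92 ± 0.24 (adjusted p = 0.00869) and Nfkb1 by 0.52 ± 0.13 (adjusted p = 0.00416). These rest on the liver Tconv libraries, and 2 of those 3 held Foxp3 over 100 normalized counts while the other held markers of other cells. Without the 5 Tconv libraries with Foxp3 over 100, liver Tconv is the single replicate 2, assumed to vary like the other groups, and none of the 10 was called: Nfkbia differed by 0.61 (adjusted p = 0.151), Tnfaip3 by 0.59 (adjusted p = 0.213) and Nfkb1 by 0.34 (adjusted p = 0.171). Without Liver Tconv replicate 2 instead, 5 of the 10 were called, and Tnfaip3 was not called without Liver Tconv replicate 1 (adjusted p = 0.0734). The part of other cells in the liver libraries was not tested.

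In PBMC, 3 of the 10 were higher and none lower, where 10.2% of all genes were called higher and 7.95% lower. Tnfaip3 differed by 0.97 ± 0.24 (adjusted p = 0.00655), Nfkb1 by 0.60 ± 0.13 (adjusted p = 0.00143) and Nfkbiz by 0.58 ± 0.19 (adjusted p = 0.035). Tnfaip3 lost its call without PBMC Treg replicate 2, its highest library (adjusted p = 0.0603), and Nfkbiz without any 1 of the 3 PBMC Treg libraries, without PBMC Tconv replicate 2 or with no filter on low values (0.0589).

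In LDLN, 2 of the 10 were higher and none lower, where 7.83% of all genes were called higher and 5.99% lower. Nfkbiz differed by 0.83 ± 0.19 (adjusted p = 0.00339) and Nfkb1 by 0.45 ± 0.12 (adjusted p = 0.017). Nfkb1 was not called without LDLN Treg replicate 1 (adjusted p = 0.0534), Treg replicate 2 (0.0724) or Tconv replicate 3 (0.134), nor without the 5 Tconv libraries with Foxp3 over 100 (0.0878). In LDLN the deviations of same-numbered Treg and Tconv libraries had weak correlations, with r of 0.122, 0.147 and 0.31. The labels do not say that equal numbers share mice. With the replicate number as a block within the tissue 4 of the 10 were called, with Relb (adjusted p = 0.016) and Tnfaip3 (adjusted p = 0.0277) added.

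**Figure D2:**
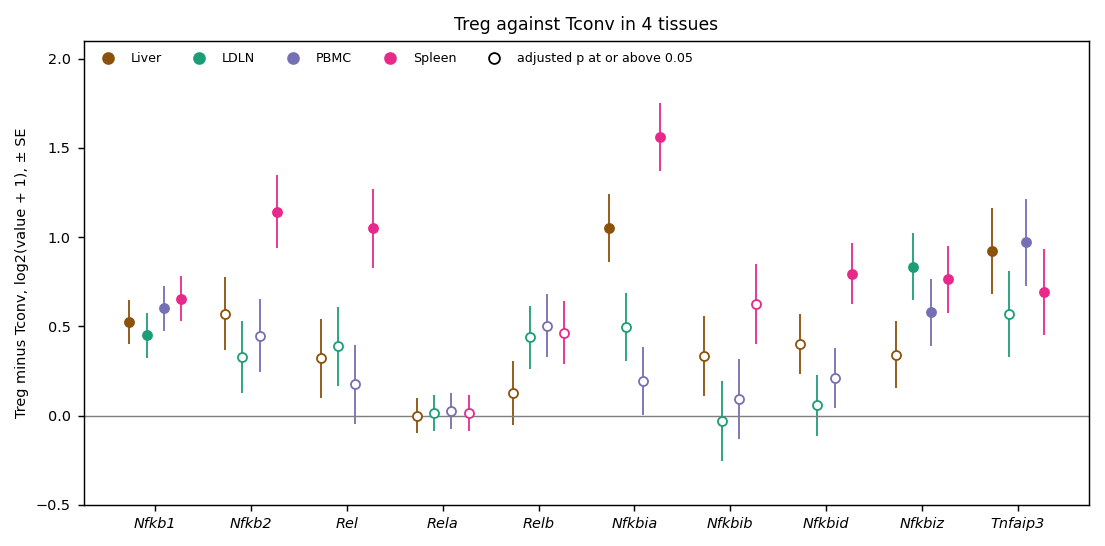
Treg minus Tconv difference of each gene on the log2(normalized count + 1) scale in each of the 4 tissues, with ± 1 SE from the fit over 24 libraries; filled points have an adjusted p under 0.05. Nfkb1 is filled in all 4 tissues, Rela lies on the zero line in all 4, and Nfkbia reaches 1.56 in spleen against 0.19 in PBMC.

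Nfkb1 was thus the 1 gene called in all 4 tissues with all libraries in the fit, and its difference ran from 0.45 in LDLN to 0.66 in spleen. Its liver and LDLN calls depended on the libraries used, as given above. Whether a gap differed between tissues was tested by an F-test over the 4 gaps. Nfkbia was the 1 gene of 10 called, with an adjusted p of 0.0208, where 2.00% of all genes were called. Its gap was 1.56 in spleen, 1.05 in liver, 0.49 in LDLN and 0.19 in PBMC. The adjusted p was 0.0522 without Spleen Treg replicate 1 and 0.0507 without Spleen Treg replicate 2. For the other 9 genes a difference between tissues in the Treg gap was not detected; this does not show that the gaps were equal.

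The design also sets the liver against lymphoid tissue. Against the mean of LDLN, PBMC and spleen, liver Treg had 3 of the 10 higher and 1 lower, where 9.66% of all genes were called higher and 10.1% lower. Tnfaip3 was higher by 2.46 ± 0.20 (adjusted p = 6e-08), Nfkbid by 0.83 ± 0.14 and Nfkbia by 0.54 ± 0.16 (adjusted p = 0.0171), and Relb was lower by a log2 difference of -0.46 ± 0.14 (adjusted p = 0.0285). The Relb call was lost without any 1 of the liver Treg libraries, and the Nfkbia call without Liver Treg replicate 1 (adjusted p = 0.0578) or 3 (0.0668). Liver Tconv had 3 of the 10 higher and none lower, where 2.58% of all genes were called higher and 0.598% lower: Tnfaip3 by 2.28 ± 0.20, Nfkbiz by 0.78 ± 0.15 and Nfkbid by 0.78 ± 0.14. Without Liver Tconv replicate 2, Nfkbid (adjusted p = 0.0639) and Nfkbiz (adjusted p = 0.0816) were not called, and Nfkbiz was not called without Liver Tconv replicate 3 either.

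The liver effect did not differ detectably between Treg and Tconv for any of the 10 genes in limma, where 0.377% of all genes were called higher and 0.371% lower. None of the 10 had an unadjusted p under 0.05, and edgeR's quasi-likelihood test on the recovered reads called 0. For Tnfaip3 the difference of the liver effects was 0.18 ± 0.28 and for Nfkbia 0.30 ± 0.22.

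The lymphoid mean joins tissues that lay far apart for these genes. Among LDLN, PBMC and spleen, 10 of 10 differed in Treg, where 38.8% of all genes did, and 9 of 10 in Tconv, where 27.4% did; Nfkbib was the exception. In Tconv Nfkb2 passed only at an adjusted p of 0.0429 and was not called with no filter on low values (0.0699), without the 5 Tconv libraries with Foxp3 over 100 (0.142), or without LDLN Tconv replicate 1 or 2, any 1 PBMC Tconv library, or Spleen Tconv replicate 2 or 3 (0.0514 to 0.119). Rela was not called there under quantile scaling (0.0532) or without Spleen Tconv replicate 1 (0.0626), which added Nfkbib (0.0254). Pairs of tissues were therefore compared directly in the same fit, a choice made after the group values were seen.

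In Treg, 10 of 10 genes were higher in spleen than in LDLN, where 28.0% of all genes were called in either direction. All 10 were also higher in spleen than in PBMC (26.6% of all genes called), and 9 were higher than in liver (18.8%), with Nfkbib the exception. Tnfaip3 was 43.6-fold higher than in LDLN, 26.5-fold higher than in PBMC and 1.91-fold higher than in liver, on the scale of log2(normalized count + 1). Rel was 5.10-fold, 7.96-fold and 3.50-fold higher in the same order, and Nfkbid 3.95-fold, 7.20-fold and 1.72-fold. Rela, at 1.29-fold, 1.32-fold and 1.33-fold, was called in all 3 with small differences. Quantile scaling lowered the Rela difference from LDLN from 0.37 to 0.22 (log2), and that of Nfkb1 from 0.34 to 0.19 (adjusted p = 0.214). The Nfkb1 difference from LDLN also lost its call without any 1 of the LDLN Treg libraries or Spleen Treg replicate 1 or 2, or with no filter on low values (0.0783). Its difference from liver lost the call without Liver Treg replicate 1 (adjusted p = 0.101) or Spleen Treg replicate 1 (0.104). Without Spleen Treg replicate 2 the Tnfaip3 difference from liver had an adjusted p of 0.0533, and without PBMC Treg replicate 1 the Nfkbib difference from PBMC had one of 0.0715.

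In Tconv, 7 of 10 genes were higher in spleen than in LDLN (21.5% of all genes called), 9 than in PBMC (22.0%) and 4 than in liver (7.88%). Tnfaip3 was 40.1-fold, 32.1-fold and 2.24-fold higher. Rel was 3.22-fold, 4.35-fold and 2.11-fold higher, and Relb 1.87-fold, 2.69-fold and 1.86-fold. Without the 5 Tconv libraries with Foxp3 over 100, the Rel difference between spleen and liver was 0.78 (adjusted p = 0.0807), and Rela fell short of the threshold there (adjusted p = 0.0513). Without Spleen Tconv replicate 1 the Rela differences from LDLN (adjusted p = 0.0862) and liver (adjusted p = 0.124) were not called, nor was the liver one without Liver Tconv replicate 2 (0.0685). Under quantile scaling the Rela difference between spleen and LDLN was 0.17 (adjusted p = 0.124), and that between spleen and PBMC 0.24 against 0.41. Nfkb2, higher in spleen than in PBMC by 0.66, differed by 0.44 without Spleen Tconv replicate 2 (adjusted p = 0.154) and was not called without Spleen Tconv replicate 3 or PBMC Tconv replicate 2 or 3, or without the 5 Tconv libraries with Foxp3 over 100 (0.0917).

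Liver stood between spleen and the other tissues, for a smaller set of genes. In Treg, 4 of 10 were higher in liver than in LDLN, a count near the 30.1% of all genes called in either direction. They were Tnfaip3 at 22.8-fold, Nfkbid at 2.29-fold, Nfkbia at 2.13-fold and Nfkbiz at 1.62-fold, the last not called without Liver Treg replicate 3 (adjusted p = 0.0564). Against PBMC 5 of 10 were higher (14.4%), the same 4 at 13.8-fold, 4.19-fold, 2.54-fold and 2.46-fold and Rel at 2.27-fold. In Tconv, 3 of 10 were higher in liver than in LDLN (11.5%): Tnfaip3 17.9-fold, Nfkbiz 2.28-fold and Nfkbid 1.81-fold. Against PBMC 4 of 10 were higher (4.77%), with Tnfaip3 at 14.3-fold, Nfkbid at 3.67-fold, Nfkbiz at 2.90-fold and Rel at 2.06-fold. Rel there had a log2 difference of 1.04, which was 1.61 without the 5 Tconv libraries with Foxp3 over 100 and lost its call without Liver Tconv replicate 2 (adjusted p = 0.0584). All 5 genes called higher in liver are ones that were also called higher in spleen against LDLN and PBMC in both cell types, comparisons that share the LDLN and PBMC libraries.

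Between blood and node fewer of the 10 were called as reported. In Treg, 3 of 10 differed between PBMC and LDLN (16.1% of all genes called): Nfkbid was 1.82-fold lower in PBMC, Nfkbiz 1.51-fold lower and Tnfaip3 1.65-fold higher. The Tnfaip3 difference was 0.72 on the log2 scale and 0.44 without PBMC Treg replicate 2 (adjusted p = 0.27), and both Tnfaip3 and Nfkbiz lost their calls when any 1 of the LDLN Treg libraries was left out or with no filter on low values (0.0765 and 0.0541), Nfkbiz also without PBMC Treg replicate 2 or 3. Under quantile scaling and under the replicate block 6 of 10 were called, with Nfkb1, Rel and Relb lower in PBMC added. In Tconv, 2 of 10 differed (6.09%): Nfkbid was 2.03-fold lower and Nfkb1 1.40-fold lower in PBMC, and Nfkb1 lost its call without LDLN Tconv replicate 1 or 2 or PBMC Tconv replicate 1.

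**Figure D3:**
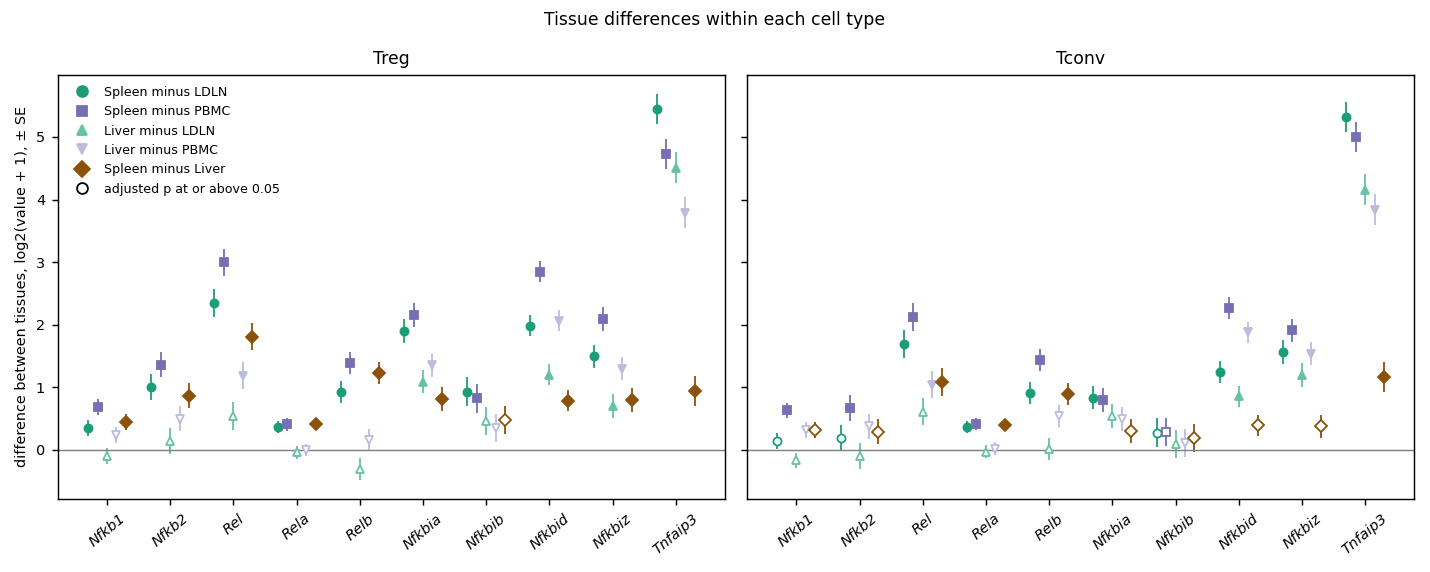
Differences between tissues within Treg (left) and Tconv (right) on the log2(normalized count + 1) scale, with ± 1 SE; filled points have an adjusted p under 0.05. Tnfaip3 differs by 3.79 to 5.45 between spleen or liver and node or blood in both panels, and Rela by at most 0.41.

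Levels of different genes were compared per kilobase of exon, with exon lengths from GENCODE M21. The length was the union of all annotated exons of a gene, 12061 bases for Nfkb1 and 3072 for Rela, and the shares depend on it. Before scaling, liver Treg averaged 3020 normalized counts for Nfkb1 and 3319 for Rela. By this length, Rela made up most of the summed length-scaled counts of the 5 subunits in all groups but spleen Treg. Its mean share ran from 47.8% ± 3.3 (SD, n = 3) there to 75.7% ± 0.8 (n = 3) in PBMC Tconv. The Rel share was 27.5% ± 3.3 in spleen Treg, 17.5% ± 2.7 in spleen Tconv and 6.49% ± 0.69 in PBMC Tconv. The subunits summed to 3010 normalized counts per kilobase in spleen Treg against 1561 in PBMC Treg.

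The inhibitors changed composition with the tissue. Tnfaip3 made up 35.7% ± 2.6 of the 5 inhibitors in spleen Treg, 33.4% ± 1.8 in liver Treg, 46.2% ± 9.97 in spleen Tconv and 32.3% ± 3.4 in liver Tconv, against 3.93% to 8.82% in the LDLN and PBMC groups. Nfkbia made up 69.7% ± 1.7 in LDLN Treg and 73.2% ± 2.1 in PBMC Tconv, and 49.2% ± 2.3 in spleen Treg. The summed inhibitors were 22474 normalized counts per kilobase in spleen Treg, 12483 in liver Treg, 4233 in LDLN Treg and 3572 in PBMC Treg. These shares are of messenger RNA and say nothing of protein.

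**Figure D4:**
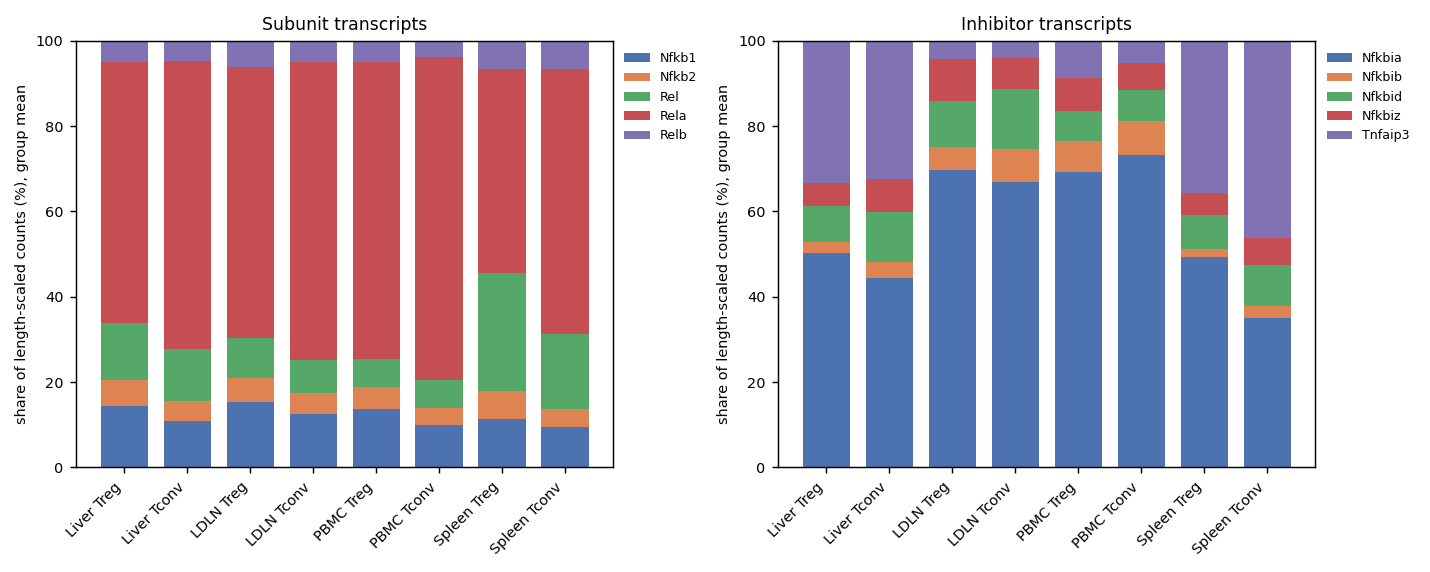
Mean share (%) of each gene in the summed length-scaled counts of the 5 subunits (left) and of the 5 inhibitors (right) in each of the 8 groups of 3 libraries. Rel widens in the spleen bars on the left, and Tnfaip3 fills 32.3% to 46.2% of the liver and spleen bars on the right and 3.93% to 8.82% of the LDLN and PBMC bars.

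Other parts of the pathway were read from gene lists. Of 9 genes of the IkB kinase complex and related kinases and adaptors, 0 were called higher and 1 lower in spleen Treg against PBMC Treg. That gene was Ikbkb, a catalytic kinase, by a log2 difference of -0.44. There 26.6% of all genes were called in either direction, and the list median was 0.04 beside 0.01 over all genes tested. In Treg 2 were higher in spleen than in liver (18.8% of all genes called) and 1 than in LDLN (28.0%), with 0 lower. In Tconv 2 were higher in spleen than in LDLN (21.5%) and 2 than in PBMC (22.0%), with 0 lower, and 0 differed from liver (7.88%). In the noncanonical arm 3 of 6 were higher in spleen Treg than in PBMC Treg, with a median of 0.41. Among them was Birc3, a ubiquitin ligase that restrains the route, by 0.76.

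Among 4 other IkB proteins and binders, Nfkbie, which encodes IkBε, and Bcl3, a nuclear IkB, were both higher in spleen Treg than in spleen Tconv, each by 1.06. In that comparison 10.1% of all genes were called higher and 8.75% lower. Of 13 ubiquitin editors and related brakes, 4 were higher and 1 lower, with a median of 0.22, and the A20 binding partners Tnip3 and Tnip1 rose by 1.36 and 0.62. Of 11 TNF receptor family genes, 6 were higher and 1 lower in spleen Treg than in spleen Tconv, with a median of 1.93, led by Tnfrsf9, the receptor 4-1BB, at 3.25. The list of 20 known NF-kB target genes also holds Tnip3, Nfkbie, Bcl3 and Birc3, so it is not separate from the lists above. Of the 20, 12 were higher and 1 lower in spleen Treg than in spleen Tconv, with a median of 0.87 beside -0.02 over all genes. In LDLN 10 were higher and none lower, where 7.83% of all genes were called higher and 5.99% lower. The activation marker Cd83, at 2.87, and Gadd45b, at 1.89, were the largest in spleen. Ccl20, a chemokine of the same list, was higher in LDLN Treg than in LDLN Tconv by 4.69 and lower in spleen Treg than in LDLN Treg by a log2 difference of -3.25. It averaged 96.6 in LDLN Treg and 10.2 in spleen Treg. Of the 20 target genes, 4 were higher and 6 lower in liver Treg than in LDLN Treg, where 30.1% of all genes were called in either direction. The list thus did not follow the tissue order of Tnfaip3 in that comparison. The other pairs of tissues in Treg gave other counts. In spleen 12 were higher and 0 lower than in liver (18.8% of all genes called in either direction). Against PBMC 12 were higher and 2 lower in spleen (26.6%), and 7 higher and 2 lower in liver (14.4%). Spleen against LDLN had 9 higher and 5 lower (28.0%), and PBMC against LDLN 1 higher and 8 lower (16.1%).

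Immediate early genes, which are induced within minutes of stimulation, moved with the same tissues. The summed normalized count of 17 such genes had a lowest, median and highest library of 92419, 114563 and 123799 in spleen Treg and 94699, 97364 and 102295 in liver Treg. It was 19485, 19671 and 19693 in LDLN Treg and 13903, 13984 and 18971 in PBMC Treg. In Tconv the medians were 95960 in spleen, 68442 in liver, 20447 in LDLN and 18077 in PBMC. All 17 were called higher in spleen than in PBMC and in liver than in PBMC, in both cell types, where 4.77% to 26.6% of all genes were called in either direction. Against LDLN fewer were: in spleen 14 were higher in Treg and 13 in Tconv with none lower (28.0% and 21.5% of all genes called), and in liver 13 were higher and 2 lower in Treg and 13 higher and 1 lower in Tconv (30.1% and 11.5%). Egr2 averaged 2199 in LDLN Treg against 144.0 in liver Treg. The part of the immediate early response in the levels of the 10 genes was not tested.

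**Figure D5:**
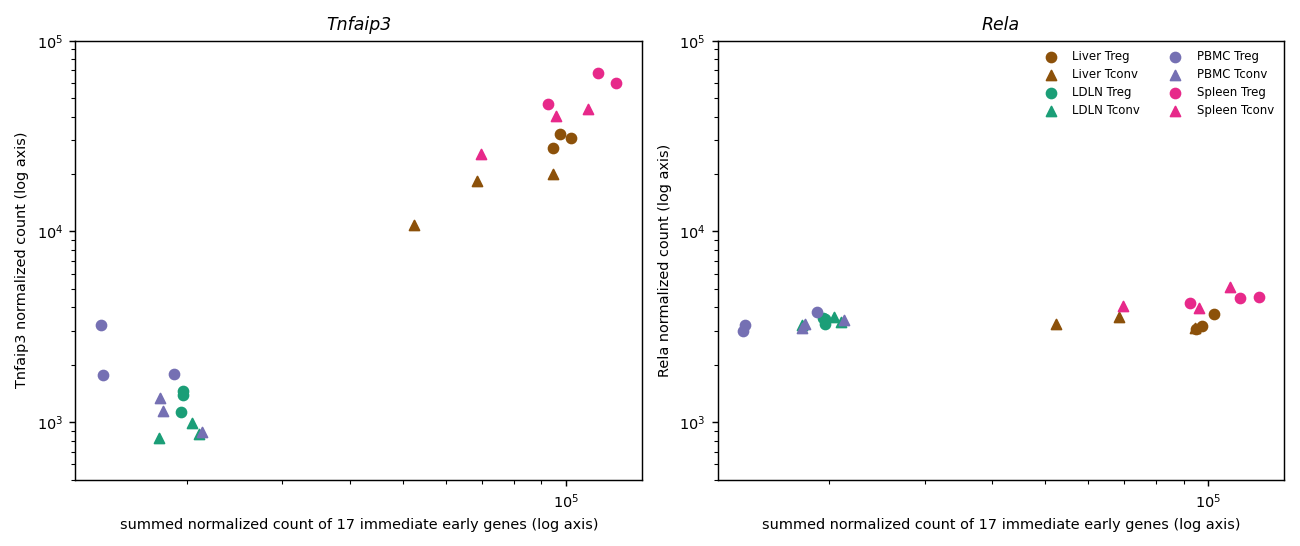
Normalized count of Tnfaip3 (left) and Rela (right) against the summed normalized count of 17 immediate early genes in each of the 24 libraries, on log axes; circles are Treg and triangles are Tconv. Liver and spleen libraries lie apart from LDLN and PBMC libraries on both axes for Tnfaip3, whereas Rela stays between 3016 and 5136 throughout.

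Markers of other cell types also differed between the tissues. For 9 macrophage markers the sum is given. It was 2519 to 4460 in spleen Treg, 2282 to 2722 in PBMC Treg, 271.2 to 1099 in liver Treg and 194.4 to 342.2 in LDLN Treg. Of the 9 markers 8 were tested, and 6 were higher in spleen Treg than in LDLN Treg (28.0% of all genes called in either direction). Csf1r averaged 1050.0 in spleen Treg and 13.8 in LDLN Treg, C1qb 758.7 and 18.9, and Adgre1 358.5 and 3.20. Marco averaged 7.95 in spleen Treg, its highest group, and Clec4f, which marks Kupffer cells of the liver, 0.912. Clec4f averaged 63.2 in liver Treg and 367.5 in liver Tconv, and its highest library held 1098. Summed erythroid markers were 10212 to 46762 in spleen Treg and 323.4 to 764.1 in LDLN Treg. In PBMC Treg the erythroid sum was 37727 to 41154. B cell markers were higher in spleen Treg than in LDLN Treg for 5 of 6 (28.0% of all genes called). In liver Treg 6 of 6 B cell markers were higher than in LDLN Treg (30.1%). Their sums in Treg were 6109 to 17068 in spleen, 7928 to 19635 in liver, 9510 to 13923 in PBMC and 1320 to 3596 in LDLN. In Tconv the B cell sum was 10777 to 22120 in PBMC, 2520 to 4168 in spleen and 2702 to 21669 in liver. In liver against LDLN, 4 of 5 dendritic cell markers and 3 of 5 NK cell markers were higher in Treg (30.1% of all genes called). The same numbers were higher in Tconv (11.5%). The part of these cells in the spleen and liver values of the 10 genes was not tested.

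The genes whose pattern over the 24 libraries was most like each member were ranked by Pearson's r of log2(normalized count + 1) among 10292 protein-coding genes with a mean of at least 50. The 24 libraries share the 8 groups, so r describes mostly the group means. Tnfaip3 was closest to Dusp1 (r = 0.988), Fosb (0.980) and Rgs2 (0.980), and Nfkbid to Nr4a2 (0.962), Nr4a1 (0.960) and Per1 (0.947), of which Dusp1, Fosb, Nr4a1 and Nr4a2 stand in the list of immediate early genes. Nfkbia was closest to Gadd45b (0.950), Rel to Got1 (0.959), Relb to Sh2d2a (0.960), Nfkbiz to Dusp5 (0.944), Nfkb1 to Gstt3 (0.955), Rela to Smarce1 (0.930) and Nfkbib to Rhog (0.932). Nfkb2 was closest to Psd (0.951), the gene that overlaps it on the opposite strand. Between members, r was highest for Nfkbid with Nfkbiz (0.933) and for Rel with Nfkbiz (0.922), and lowest for Rela with Nfkbib (0.302).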

How the data were processed

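The 24 libraries came from 8 groups of 3, each library a pool of 3 mice, made by SMARTer amplification, poly(A) selection and TruSeq paired-end preparation, per the labels' protocols. Per the submitters' processing notes, Trimmomatic 0.32, TopHat2 2.0.11, Bowtie2 2.2.2, SAMtools 0.1.19, HTSeq 0.6.1p1 and build GRCm38 were used; the strand setting of the counting is not given in the sources used here. The deposited values are a signal in which each gene's read count was divided by 1 factor per library: all values were whole reads, within 0.001, after division by the library's smallest positive value, and these recovered reads give the depths.

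Groups were taken from the labels. The main test was limma 3.58.1 (R 4.3.3) on log2(value + 1) with a variance trend, 1 fit of 8 groups with 16 residual degrees of freedom, over the 18576 genes that reached 10 in 3 or more libraries. The added 1 makes fold changes understate those of low genes. Benjamini-Hochberg adjustment ran over all genes tested, with a threshold of 0.05. The p-values measure the spread between pools. Alternatives were a pseudocount of 10 or 0.1, no filter, a filter of 50, quantile scaling, edgeR 4.0.16 with TMM on the recovered reads, the replicate number as a block, leaving out the 5 Tconv libraries with Foxp3 over 100, and leaving out each of the 24 libraries. The scripts were tested on simulated data.

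The 10 genes, the lists and the tests were chosen with earlier results of these data known. All 10 genes are named, and from each list in a comparison up to 4 genes past the threshold with the largest differences and a mean of at least 50, and for each member the 3 genes most like it. Clec4f, Marco and the Egr2 levels in liver and LDLN were named outside this rule, after their values were seen. The 6 hepatocyte markers were not analysed here. Another gene list is not reported here.

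Whether replicate numbers pair the libraries was checked by correlating the deviations of same-numbered Treg and Tconv libraries from their group means. Over 12 pairs r ran from 0.071 to 0.416, both in spleen, and 10 were over 0.1. Every pair was over 0.1 in liver, where the lowest was 0.102, and in LDLN, but not in PBMC and spleen. The block within a tissue is therefore read in liver and LDLN. The cut at 0.1 does not show that only these tissues were paired. In liver the block changed no call of the 10 genes.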

Additional observations from a re-analysis of the deposited data

Results flagged for a closer look

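The Treg minus Tconv difference of Nfkbia was not the same in the 4 tissues. It was 1.56 in spleen, 1.05 in liver, 0.49 in LDLN and 0.19 in PBMC on the log2 scale, and the F-test of the gap across tissues gave an adjusted p of 0.0208 in limma. Every Treg library was above every Tconv library in liver, LDLN and spleen, and PBMC overlapped. The adjusted p was 0.0522 without Spleen Treg replicate 1 and 0.0507 without Spleen Treg replicate 2. Spleen Tconv replicate 1, at 4333 normalized counts, was the lowest of its group.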

How the results depend on the processing

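Each of the 220 differences or F-tests of the 10 genes was refitted under the alternatives, the block within tissue excepted, which was fitted for 60 that set Treg against Tconv (55 kept their side and 5 gained a call); no call changed direction. With edgeR on the recovered reads 219 of 220 kept their side of the threshold, with a pseudocount of 10 or 0.1 219 each, with a filter of 50 216, with no filter 214, with quantile scaling 210, and with the replicate block 210; without the 5 Tconv libraries with Foxp3 over 100, 205 did. In refits that left out 1 library, 1781 kept their side, 61 lost a call and 18 gained one. Nfkb2 in the liver gap, short of the threshold as reported, passed with a pseudocount of 10 (adjusted p = 0.0498), a filter of 50 (0.0413), quantile scaling (0.0354), the replicate block (0.0464) and without Liver Tconv replicate 2 (0.0234). The cause of these changes was not tested, beyond the fewer libraries or genes in the refit itself.

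Of the counts among the 10 genes, PBMC against LDLN in Treg moved from 3 to 1 with no filter, to 6 with quantile scaling, to 6 with the replicate block and to 5 without the 5 Tconv libraries. The replicate block within tissue raised the LDLN gap from 2 to 4. Without the 5 Tconv libraries the liver gap fell from 3 to 0, the LDLN gap from 2 to 1, and in Tconv spleen against liver from 4 to 2, while liver against LDLN rose from 3 to 5.

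Of the counts over all genes, the difference of the liver effects moved from 139 to 255 with quantile scaling, 259 with the replicate block, 312 with the block within tissue and 254 without the 5 libraries. Liver against the lymphoid mean in Tconv moved from 590 to 947 with edgeR and 1350 without the 5 libraries. The gap across tissues moved from 372 to 606 with the replicate block and 672 with the block within tissue, and the liver gap from 3808 to 1371 without the 5 libraries. The block changed no other count by more than 1.5 times; same-numbered libraries matched best in 8 of 12 pairs, a hint from the data only.

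Leaving out 1 library gave these ranges among the 10 genes: liver gap 2 to 5, LDLN gap 1 to 2, PBMC gap 1 to 3, gap across tissues 0 to 1, liver against the lymphoid mean 2 to 4 in Treg and 1 to 3 in Tconv, liver against LDLN in Tconv 3 to 5, and PBMC against LDLN 1 to 5 in Treg and 1 to 2 in Tconv. Over all genes the ranges were 2026 to 3819 for liver against the lymphoid mean in Treg and 137 to 1176 in Tconv, 32 to 268 for the difference of the liver effects, and 239 to 558 for the gap across tissues. They were 955 to 2912 for liver against LDLN in Tconv, 1547 to 2754 and 487 to 1219 for liver against PBMC in Treg and Tconv, 2052 to 3598 and 635 to 1740 for spleen against liver in Treg and Tconv, and 608 to 997 for PBMC against LDLN in Tconv.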
